A study of Mus musculus with 14 samples.

Results

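The translation initiation and elongation factor genes of mouse skeletal muscle were taken by symbol from the RNA sequencing libraries of this study. They are the genes whose symbols start with Eif1 to Eif6, Eef1 or Eef2, without the kinases and inhibitors that share such symbols (Eif2ak and Eif4ebp genes, Eef2k), without Eef2kmt and without pseudogenes. The rule found 55 genes of the 24359 used, and it used no measured value. Grouped by symbol, they comprised 5 genes of eIF1 and eIF1A, 6 of eIF2 and the eIF2-like Eif2a and Eif2d, 5 of eIF2B and 14 of eIF3. A further 5 belonged to eIF4A, eIF4B and eIF4H, 8 to eIF4E and eIF4G, 5 to eIF5, eIF5A, eIF5B and eIF6, 6 to eEF1 and 1 to eEF2. Of the 55, 52 reached a mean of 1 FPKM (a fragment rate that is scaled for transcript length and library size) and were tested in each comparison, and Eif3j1, Eif4e1b and Eif5a2 did not.

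Initiation factors bring the small ribosomal subunit and the initiator tRNA to the capped 5′ end of an mRNA and move them to the start codon, where the large subunit joins. Elongation factors then work at each codon: eEF1A delivers the aminoacyl-tRNA, the eEF1B subunits recharge eEF1A with GTP, and eEF2 moves the ribosome along. Adult muscle fibres are known for a form of eEF1A of their own, encoded by Eef1a2, while most other cells use that of Eef1a1. The supply and activity of these factors are part of how a growing muscle makes protein.

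Poly(A) RNA of the tibialis anterior, a muscle of the lower leg, was sequenced from C57Bl/6 mice, all of the same labelled strain, whose muscle was treated with follistatin or served as control. Follistatin is a secreted protein that binds myostatin and activins, which restrain the growth of muscle. There were 3 control and 4 follistatin libraries of day 3, 2 and 2 of day 7, and 1 and 2 of day 14, and days 7 and 14 were joined as the study's design joins them (3 control and 4 follistatin libraries). The labels used here do not give age, the way follistatin was given, what the controls received, or whether replicates came from separate animals, so every p-value reflects the spread among libraries alone, which may be technical.

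Fst, the gene of follistatin, lay between 1.01 and 1.42 FPKM in the controls and between 49.7 and 67.8 FPKM in the follistatin libraries of day 3, and between 0.808 and 1.17 against 367 and 1421 FPKM at days 7 and 14. Summed over genes, a library held between 486377 and 532859 FPKM at day 3, between 485755 and 510584 FPKM in the controls of days 7 and 14, and between 364513 and 433552 FPKM in the follistatin libraries of those days. In control day 7 replicate 1, 16158 genes were above 0, while the other 6 libraries of days 7 and 14 had 19383 to 20283. The absolute depth is unknown, as no read numbers were used. In the tables of days 7 and 14, all 10 markers of skeletal muscle were among the 31 genes that the authors marked as too abundant to estimate. Of these markers 8 are listed at 0 in a library, while Actn3 and Casq1 were above 0 in all 7 libraries, at 2397 FPKM or more. Ckm, Pvalb and Mylpf read 9169 to 16277 FPKM in the 3 controls and are listed at 0 in all 4 follistatin libraries. The library sums of these days leave them out in the follistatin arm alone, so they are not like for like. At day 3, 7 of the 10 markers were tested and none was called, and the other 3 (Acta1, Atp2a1 and Myh4) carried the mark. Myh4 is listed at 0 in all 4 follistatin libraries of day 3, against 8989 to 10504 FPKM in the controls. With Myh4 counted as listed, the markers summed to at least 83890 FPKM in every library of day 3. None of the 55 factor genes carried that mark.

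Some factors have paralogues of related sequence, and the pair this report turns on is Eef1a1 and Eef1a2. In GENCODE M21 on GRCm38 (mm10), Eef1a1 lies on chromosome 9 from 78478449 to 78489151, minus strand, and Eef1a2 on chromosome 2 from 181147653 to 181157014, minus strand. Their coding sequences are 79.96% identical over 1392 aligned bases, and the longest run of identical bases is 23. The opening 90 coding bases of each, 5′ to 3′, are shown with capitals at the 15 bases that differ between the pair.
Eef1a1: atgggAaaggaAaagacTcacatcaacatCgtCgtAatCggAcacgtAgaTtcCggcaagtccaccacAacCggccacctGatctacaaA
Eef1a2: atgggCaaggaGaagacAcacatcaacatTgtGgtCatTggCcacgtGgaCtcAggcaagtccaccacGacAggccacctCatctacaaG
Eif5a and Eif5a2 are shown because the first was called at days 7 and 14 and the other lay below the level tested. Their coding sequences are 72.26% identical over 465 aligned bases with a longest identical run of 14, and 25 of the opening 90 bases differ (capitals).
Eif5a: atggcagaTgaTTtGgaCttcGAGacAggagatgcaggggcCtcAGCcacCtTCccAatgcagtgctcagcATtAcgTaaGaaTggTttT
Eif5a2: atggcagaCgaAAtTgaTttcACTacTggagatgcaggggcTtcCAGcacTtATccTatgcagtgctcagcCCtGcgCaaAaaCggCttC
In each pair the differing bases are spread through the opening stretch. Several factors also have near-identical copies elsewhere in the genome, here other annotated genes, pseudogenes among them, that match at least 200 bases at 95% identity or more. Eef1a1 has 9 such copies, Eif1 13, Eef1g 4, Eif4a1 3, Eef2 and Eif5a 1 each, and Eef1a2 and Eif4b none. How the authors' counting shared reads between a gene and its copies is not given in the sources used here.

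Across all 14 libraries Eef1a2 was the most abundant factor mRNA per length, with a mean of 793 FPKM (684 to 1094). The sets of day 3 and of days 7 and 14 may have been scaled separately, so this order mixes their scales. Next came Eef2 (mean 420, 324 to 535 FPKM), Eif1 (335), Eef1g (309), Eif5a (257), Eef1a1 (233) and Eif4a2 (158). The Eef1a2 libraries did not overlap those of Eef2, whereas the ranges of Eef2, Eif1, Eef1g, Eif5a and Eef1a1 overlapped one another. Eif4enif1 (11.2 FPKM) and Eif1a (7.08 FPKM) had the lowest means of the 52 tested genes. The genes not tested lay at 0.2 to 1.01 FPKM (Eif5a2), 0.0681 to 0.331 FPKM (Eif3j1) and 0 to 0.3 FPKM (Eif4e1b).

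At day 3 the factor genes lay close to their control levels. By limma on log2(FPKM + 1), 0 of 52 passed an adjusted p of 0.05, against 1.49% of all genes tested, and 7 of 52 had an unadjusted p under 0.05, against 15.2% of all genes. All 52 log2 changes lay between -0.39 (Eef2) and 0.37 (Eef1e1), with a median of 0.02 (0.01 over all genes) and a median size of 0.09. The changes were above 0 in 33 of 52 genes, against 52.6% of all genes. Half-widths of the 95% intervals had a median of 0.20 on the log2 scale.

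The groups of day 3 did not overlap for 8 genes. Higher in all 4 follistatin libraries than in all 3 controls were Eef1b2, Eef1e1, Eef1g, Eif4a1 and Eif5a, 5 of 52 against 8.31% of all genes. Lower in all 4 were Eef2, Eif4b and Eif4g1, 3 of 52 against 6.8% of all genes. Both shares (9.62% and 5.77%) are near those of the genes at large. The authors' deposited table, made with Cuffdiff, gave a q under 0.05 to 6.26% of the genes it tested at day 3, and to 2 factor genes, Eef2 (log2 fold change -0.41, q = 0.00191) and Eif4b (-0.35, q = 0.00997).

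Eef2, the translocase of elongation (chromosome 10, 81176631 to 81182498, plus strand), read 502, 514 and 535 FPKM in the controls of day 3 and 345, 443, 428 and 374 FPKM in the follistatin libraries. Every follistatin library lay under every control. The means were 517 ± 16.5 (SD, n = 3) and 397 ± 45.9 FPKM (n = 4), a log2 change of -0.39 (SE 0.09, limma adjusted p = 0.0961). The fold of the means was 0.768.

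Eif4b, which stimulates the helicase eIF4A (chromosome 15, 102073773 to 102097173, plus strand), read 81.4, 84.5 and 90.3 FPKM in the controls of day 3 and 66.2, 71.6, 68.8 and 67.6 FPKM with follistatin. The groups again stood apart, the follistatin libraries being the lower. The log2 change was -0.31 (SE 0.06, limma adjusted p = 0.0611). This gene was called at day 3 under 4 other settings, with adjusted p-values of 0.0433 to 0.0487 (a filter at 5 FPKM, median-ratio rescaling, quantile normalization, or leaving out small RNA genes). Over all settings of day 3 its log2 change kept its sign.

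Among the genes that lay higher at day 3, Eif4a1, the helicase that unwinds the 5′ end of the mRNA, read 37.6, 44.7 and 42.7 FPKM in the controls and 52.8, 52.2, 49.4 and 49.9 FPKM with follistatin. Its log2 change was 0.29 (SE 0.08, limma adjusted p = 0.121). Eef1e1, which despite its symbol is a part of the aminoacyl-tRNA synthetase complex, had means of 14 ± 2.03 and 18.2 ± 1.76 FPKM (0.37, SE 0.11, adjusted p = 0.177). The 3 control values of each gene lay below all 4 follistatin values, and neither difference was called.

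At days 7 and 14, 3 factor genes were called: Eef1g and Eif5a rose and Eif4b fell. These are 3 of 52 genes, against 5.5% of all genes tested, with 2 higher against 2.24% and 1 lower against 3.27%. An unadjusted p under 0.05 was given to 15 of 52, against 28.3% of all genes, close to the share of the genes at large. The median log2 change was 0.03, against -0.09 over all genes, and 29 of 52 lay above 0, against 39.2% of all genes. Rescaling by the median ratio called 4 genes by limma, all higher (Eef1g, Eif2b3, Eif4a1 and Eif5a, with Eif4b at an adjusted p = 0.051). Quantile normalization called 6, of which 4 were higher and 2 lower. Over all genes these settings called 628 and 740 of 11047, against 608 in the main fit.

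**Figure D1:**
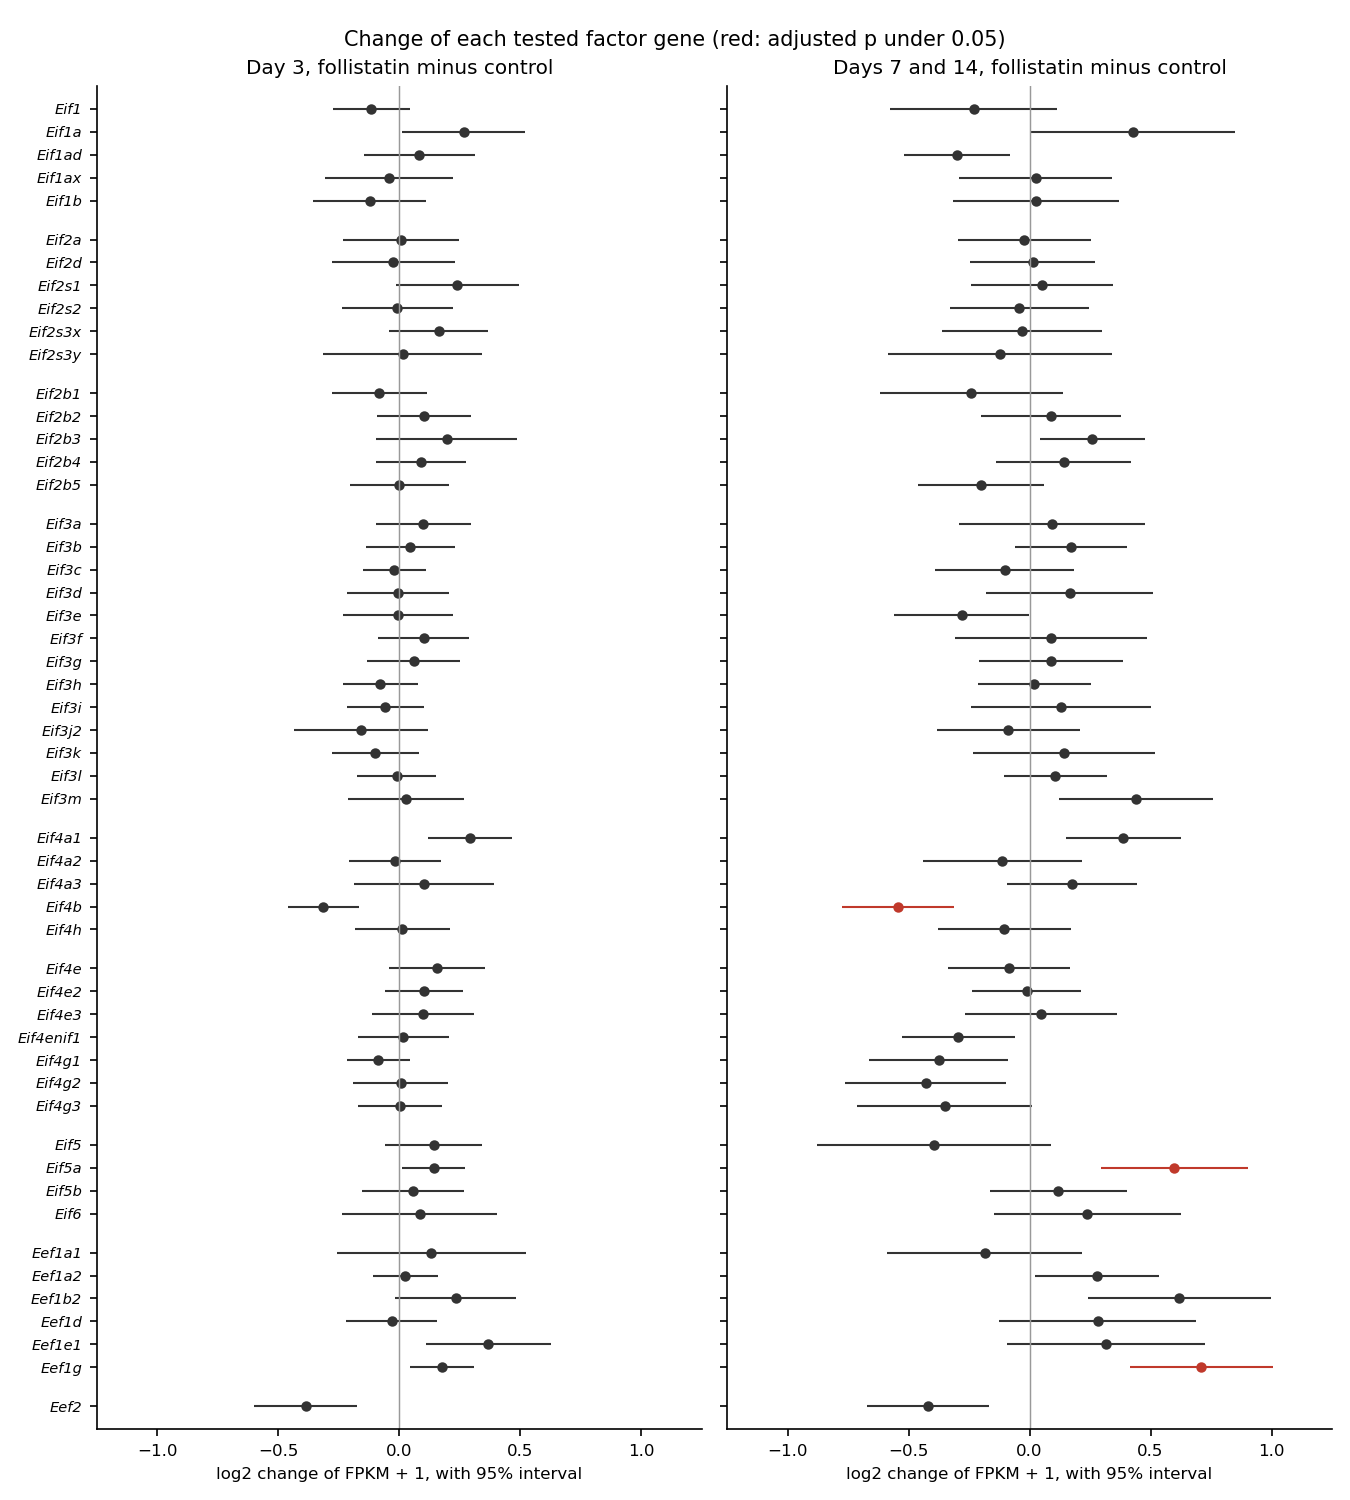
Log2 change of FPKM + 1, follistatin minus control, for the 52 tested factor genes at day 3 (left) and days 7 and 14 (right). Points are the limma estimate, bars its 95% interval, and genes are grouped by class from eIF1 (top) to eEF2 (bottom). All points of day 3 lie within 0.5 of 0, and at days 7 and 14 all but 4 do, with the 3 called genes, Eef1g, Eif5a and Eif4b, in red.

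Groups that did not overlap at days 7 and 14 numbered 15. Higher in all 4 follistatin libraries were Eef1a2, Eef1b2, Eef1g, Eif2b3, Eif3b, Eif3m, Eif4a1 and Eif5a, 8 of 52 against 8.96% of all genes. Lower were Eef2, Eif1ad, Eif4b, Eif4enif1, Eif4g1, Eif4g2 and Eif4g3, 7 of 52 against 21.5% of all genes. As a share, the 8 higher genes are 15.4% of the members and the 7 lower genes 13.5%. The authors' deposited Cuffdiff table gave a q under 0.05 to 17.8% of its tested genes at these days. It did so for 5 factor genes, Eef1g (log2 fold change 0.71, q = 0.000894), Eef1b2 (0.63, q = 0.0044), Eif5a (0.60, q = 0.00759), Eif4b (-0.57, q = 0.00918) and Eif1a (0.50, q = 0.0456).

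Eef1g, the gamma subunit that anchors the eEF1B exchange complex (chromosome 19, 8967041 to 8978479, plus strand), had the largest log2 change of the factor genes. Its controls read 323 and 318 FPKM on day 7 and 355 FPKM on day 14. With follistatin it read 577 and 515 FPKM on the earlier of these days and 464 and 628 FPKM on the later. All 4 follistatin libraries lay above all 3 controls on both days. Means were 332 ± 20.2 (SD, n = 3) and 546 ± 71.4 FPKM (n = 4), 1.65-fold, and the log2 change was 0.71 (SE 0.13, limma adjusted p = 0.0256). At day 3 the same gene stood at 152, 150 and 156 FPKM in the controls and at 176, 168, 181 and 166 FPKM with follistatin, a log2 change of 0.18 (SE 0.06, adjusted p = 0.2).

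Eif5a encodes the hypusine-containing factor that helps the ribosome through stretches it translates slowly (chromosome 11, 69916714 to 69921958, minus strand). Its controls read 228, 232 and 260 FPKM (the last at day 14), and its follistatin libraries 399, 342, 309 and 412 FPKM (the last pair at day 14). The lowest follistatin library lay above the highest control. Means were 240 ± 17.5 and 365 ± 48.2 FPKM, and the log2 change was 0.60 (SE 0.13, limma adjusted p = 0.0432). The day 3 change was 0.14 (SE 0.06, adjusted p = 0.287), from 192 ± 5.23 to 212 ± 7.47 FPKM.

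Eif4b read 74.7 and 70.9 FPKM in the controls of day 7, 81.1 FPKM in that of day 14, and 48.7, 53.7, 49.7 and 53.7 FPKM in the 4 follistatin libraries. All follistatin values lay close together and below every control. The log2 change was -0.54 (SE 0.10, limma adjusted p = 0.0265), with means of 75.5 ± 5.13 and 51.5 ± 2.62 FPKM. Of the 3 called genes it is the 1 without a near-identical copy.

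The 3 calls depended on which libraries entered. Without any single control of days 7 and 14 no factor gene was called by limma, with adjusted p-values of 0.0868 to 0.201 for the 3 genes. At an unadjusted p under 0.05 there were 8, 9 and 11 of 52 factor genes (without control day 7 replicate 1, control day 7 replicate 2 and control day 14 replicate 1). Over all genes these fits called 43 of 11056, 145 of 10974 and 62 of 11044, against 608 of 11047 in the main fit. The fall in calls was thus shared by the genes at large. Without follistatin day 7 replicate 1 there were 5 calls (Eef1g, Eef2, Eif1a, Eif3m and Eif4b), against 907 of 11057 over all genes. The call of Eif5a ended without that library (limma adjusted p = 0.0546), without follistatin day 7 replicate 2 (0.063) and without follistatin day 14 replicate 2 (0.066), and that of Eif4b without follistatin day 14 replicate 1 (0.0576). With a term for day Eif5a was not called (limma adjusted p = 0.0618), while Eef1g and Eif4b were. With no filter on low values Eef1g (0.0646) and Eif5a (0.0907) were not called. The log2 changes moved less: without each library in turn they ran from 0.64 to 0.78 for Eef1g, from 0.54 to 0.67 for Eif5a and from -0.59 to -0.49 for Eif4b.

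**Figure D2:**
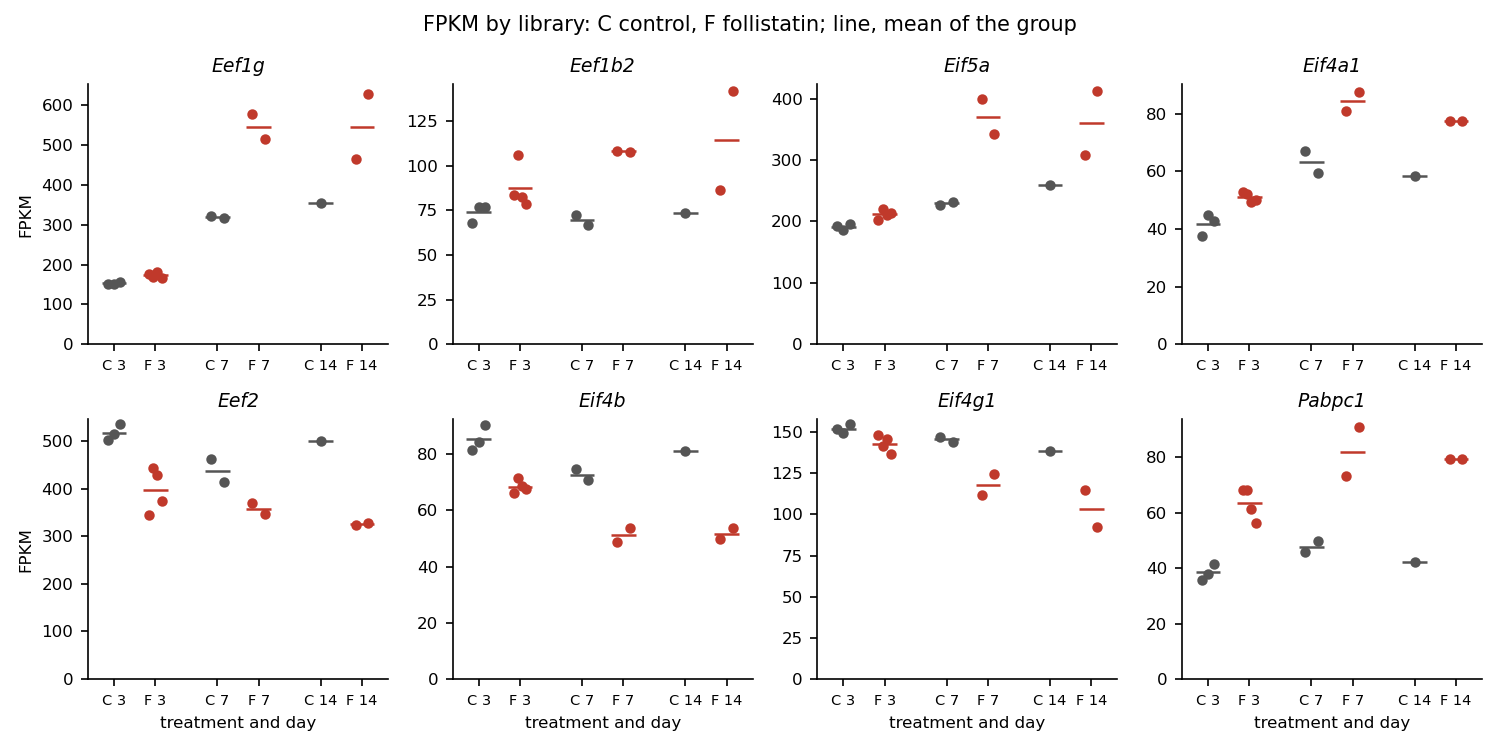
FPKM of 8 genes in each of the 14 libraries (linear axes from 0), with controls in grey (C), follistatin in red (F), the day beside each letter and a line at the mean of each group. At days 7 and 14 Eef1g, Eef1b2, Eif5a, Eif4a1 and Pabpc1 stand higher with follistatin and Eef2, Eif4b and Eif4g1 lower, with no overlap. Of these, Eef1b2, Eif4a1, Eef2 and Eif4g1 were not called. Eef1g also steps up from about 153 FPKM in the day 3 controls to 332 FPKM in the later ones.

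In the class of eIF4E and eIF4G, which was grouped by symbol and also holds Eif4g2 and Eif4enif1, none of the 7 tested members was called at days 7 and 14. Of all genes, 5.5% were. Of the 7, 3 lay lower at an unadjusted p under 0.05, against 19.3% of all genes, and 1 had a log2 change above 0, against 39.2%. The median log2 change was -0.29, the value of Eif4enif1, against -0.09 over all genes. Their summed level was 411 to 437 FPKM in the controls and 306 to 377 FPKM with follistatin, without overlap, whereas at day 3 the sums overlapped (394 to 426 and 386 to 423 FPKM). Eif4g1, the main scaffold that joins the cap-binding protein to the ribosome, read 147, 144 and 138 FPKM in the controls and 112, 125, 115 and 92.1 FPKM with follistatin (log2 change -0.38, SE 0.12, limma adjusted p = 0.103). Its relative Eif4g2, which lacks the site for the cap-binding protein, read 166, 154 and 155 FPKM against 93.3, 134, 132 and 115 FPKM (-0.43, SE 0.14, adjusted p = 0.108).

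Eif4g3, a further scaffold, read 40.8, 37.6 and 34 FPKM against 31.1, 33.7, 30.9 and 22.1 FPKM (-0.35, SE 0.16, limma adjusted p = 0.189). Eif4enif1, which binds eIF4E and carries it into the nucleus, had means of 11.9 ± 0.164 and 9.53 ± 0.975 FPKM (-0.29, SE 0.10, adjusted p = 0.111). These 4 of 7 genes had follistatin groups wholly below the controls, against 21.5% of all genes tested. The cap-binding protein itself, Eif4e, did not share that order: it read 28.8, 26.6 and 30.5 FPKM against 23.8, 29.5, 27.4 and 27.3 FPKM (-0.08, 95% interval -0.34 to 0.17), and its change was 0.02 with rescaling by the median ratio. Eif4e2 was at -0.01 (95% interval -0.24 to 0.21) and Eif4e3 at 0.05 (95% interval -0.27 to 0.36).

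The helicase group was mixed. Eif4a1 read 66.9, 59.3 and 58.5 FPKM in the controls of days 7 and 14 and 80.9, 87.6, 77.4 and 77.3 FPKM with follistatin, with no overlap (log2 change 0.39, SE 0.10, limma adjusted p = 0.0664). Its paralogue Eif4a2, the more abundant of the pair, overlapped, at 190, 170 and 190 FPKM against 138, 186, 164 and 196 FPKM (-0.11, 95% interval -0.44 to 0.22). The coding sequences of the pair are 77.59% identical, with a longest identical run of 20 bases. Eif4a1 thus lay higher and Eif4b lower in both sets of days, and of these 4 differences the one called was that of Eif4b at days 7 and 14.

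Of 13 tested eIF3 subunits, the scaffold on the small subunit, 0 were called in either set against 1.49% and 5.5% of all genes. At an unadjusted p under 0.05 there were 0 at day 3 and 2 at days 7 and 14, against 15.2% and 28.3% of all genes, and the medians were -0.01 and 0.09, against 0.01 and -0.09 over all genes. Eif3m had the largest change of these, from 77.5, 75.8 and 73.5 FPKM to 85.6, 101, 104 and 126 FPKM (0.44, SE 0.14, limma adjusted p = 0.0921), against 0.03 at day 3. Eif3e lay at the other end, with means of 91.7 ± 7.61 and 75.4 ± 8.12 FPKM (-0.28, SE 0.12, adjusted p = 0.176). Eif3m and Eif3e both belong to the same complex, and they lay on opposite sides of 0 while the sums over the 14 genes overlapped, at 857 to 920 FPKM against 889 to 1045 FPKM.

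For eIF2, which carries the initiator tRNA, and the eIF2-like genes, 0 of 6 tested genes were called in either set and 0 had an unadjusted p under 0.05 by limma. Of all genes, 1.49% (day 3) and 5.5% (days 7 and 14) were called, and 15.2% and 28.3% had an unadjusted p under 0.05. Eif2s1, the subunit whose phosphorylation slows initiation, stood at 14.1 ± 1.21 and 16.9 ± 2.29 FPKM at day 3 (0.24, 95% interval -0.01 to 0.49) and at 15.5 ± 0.895 and 16.2 ± 2.4 FPKM at days 7 and 14 (0.05, -0.24 to 0.34). Eif2s3y, the Y-linked copy of the gamma subunit, was present in all 14 libraries at 26.4 to 49.9 FPKM. Eif2d, which can deliver tRNA to the ribosome by another route, stood at -0.02 and 0.01.

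The exchange factor eIF2B, which recharges eIF2 with GTP, had 0 of 5 genes called in either set by limma, against 1.49% and 5.5% of all genes. At an unadjusted p under 0.05 there were 0 at day 3 and 1 at days 7 and 14, against 15.2% and 28.3% of all genes. Eif2b3 read 16.8, 15.4 and 15.4 FPKM in the controls of days 7 and 14 and 18.6, 20.6, 19.6 and 18 FPKM with follistatin, without overlap (0.26, SE 0.09, adjusted p = 0.125), and it was called when values were rescaled by the median ratio. Eif2b1 lay at -0.24 (95% interval -0.62 to 0.14) and its groups overlapped.

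The eIF1 and eIF1A genes, which keep the scanning ribosome ready to recognise the start codon, were grouped with Eif1ad, placed there by its symbol. Of these 5 genes, 0 were called in either set by limma, against 1.49% and 5.5% of all genes. At an unadjusted p under 0.05 there were 1 at day 3 and 2 at days 7 and 14, against 15.2% and 28.3% of all genes. Eif1a had the highest log2 change of them in both sets, at 6.44 ± 1.05 and 7.9 ± 0.522 FPKM at day 3 (0.27, adjusted p = 0.303) and at 5.52 ± 0.337 and 7.93 ± 1.92 FPKM later (0.43, adjusted p = 0.174). Eif1ad read 12.2, 11.3 and 10.8 FPKM against 9.89, 9.33, 8.41 and 8.77 FPKM at days 7 and 14 (-0.30, SE 0.10, limma adjusted p = 0.0961), and it shares 15.3% of its exon bases with Banf1 on the opposite strand. The strand setting is not given in the sources used here, so reads of the 2 genes cannot be told apart where they overlap.

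At the joining of the subunits, Eif5, which triggers GTP hydrolysis on eIF2, read 81.3, 71.1 and 53.2 FPKM in the controls of days 7 and 14 and 44.9, 71.3, 47.6 and 44.7 FPKM with follistatin, and the groups overlapped (-0.39, SE 0.21, limma adjusted p = 0.25). Eif5b, the GTPase of subunit joining, stood at 0.06 at day 3 and 0.12 later. Eif6, which keeps free large subunits from joining too early, stood at 0.08 (95% interval -0.24 to 0.40) and 0.24 (-0.15 to 0.63). Eif5a2 was under the level tested, at 0.519 to 0.608 FPKM in the controls of days 7 and 14 and 0.2 to 0.542 FPKM with follistatin, so nearly all eIF5A mRNA measured was that of Eif5a.

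Of the 3 exchange subunits of eEF1B, Eef1g, described above, was the 1 called at days 7 and 14. Eef1b2, the catalytic beta subunit, read 72.6, 66.9 and 73.5 FPKM in the controls and 108, 108, 86.6 and 142 FPKM with follistatin, with no overlap (0.62, SE 0.16, limma adjusted p = 0.0657). Eef1d, the delta subunit, overlapped, at 59.7, 56.1 and 64.2 FPKM against 97, 68.1, 56.9 and 75.4 FPKM (0.28, SE 0.18, adjusted p = 0.321). Over the 6 eEF1 genes the summed level was 1453 to 1530 FPKM in the controls and 1701 to 2078 FPKM with follistatin, without overlap. Eef1a2 gave the largest part of this sum in every library, but not the largest part of the difference between the groups. Its mean was 779 FPKM in the controls and 948 FPKM with follistatin, that of Eef1g 332 and 546 FPKM. The mean of Eef1a1 lay lower with follistatin (230 and 204 FPKM).

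Eef2 was again on the lower side. It read 461 and 414 FPKM in the controls of day 7 and 499 FPKM in that of day 14, and 369, 346, 324 and 327 FPKM in the follistatin libraries. All 4 lay below all controls, as at day 3. The log2 change was -0.42 (SE 0.11, limma adjusted p = 0.0615), against -0.39 at day 3, and the difference of both changes was -0.03 (95% interval -0.33 to 0.26). Neither change of Eef2 was called in these fits, while Cuffdiff in the authors' deposited table called that of day 3. The later change was called by limma with quantile normalization (adjusted p = 0.0313), in 1 fit of all 14 libraries (0.0114) and without follistatin day 7 replicate 1 (0.0497). That fit of all 14 libraries called 2098 of 11047 genes, against 608 in the main fit. Other settings did not call it, among them median-ratio rescaling (-0.31, limma adjusted p = 0.146) and the replicate block (0.154). Nor was it called without any single control (limma adjusted p = 0.127 to 0.235).

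For the 2 eEF1A genes the question was whether the muscle form and the other form kept their proportion. At day 3 Eef1a1 read 226, 217 and 265 FPKM in the controls and 250, 355, 246 and 203 FPKM with follistatin (log2 change 0.13, 95% interval -0.26 to 0.52). Eef1a2 read 709, 709 and 694 FPKM against 684, 705, 770 and 709 FPKM (0.03, -0.11 to 0.16). Both sets of values overlapped, and the level of Eef1a2 was 2.62 to 3.26 times that of Eef1a1 in the controls and 1.99 to 3.5 times with follistatin.

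At days 7 and 14 Eef1a1 read 243, 248 and 199 FPKM in the controls and 188, 250, 157 and 221 FPKM with follistatin, which overlapped (-0.18, 95% interval -0.59 to 0.22, limma adjusted p = 0.503). Eef1a2 read 759, 750 and 828 FPKM against 1094, 902, 919 and 877 FPKM, without overlap (0.28, SE 0.11, limma adjusted p = 0.15). It was called in 1 fit of all 14 libraries (limma adjusted p = 0.0326), which called 2098 of 11047 genes against 608 in the main fit. The share of Eef1a1 in the sum of both was 24.3%, 24.8% and 19.4% in the controls and 14.7%, 21.7%, 14.6% and 20.2% in the follistatin libraries. The control of day 14 lay within the range of the follistatin libraries, and both controls of day 7 lay above it.

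Tested on the log2 ratio of Eef1a1 to Eef1a2, follistatin minus control was 0.11 at day 3 (exact two-sided permutation p = 0.714) and -0.47 at days 7 and 14 (exact permutation p = 0.171), where the smallest p that 35 splits allow is 0.0286. Neither difference passed. In the day 7 libraries alone the difference was -0.58, with 2 against 2 libraries and no test. The reads of Eef1a1 may include or exclude those of its 9 near-identical copies, which Eef1a2 does not have, and what part this has in the ratio was not tested.

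**Figure D3:**
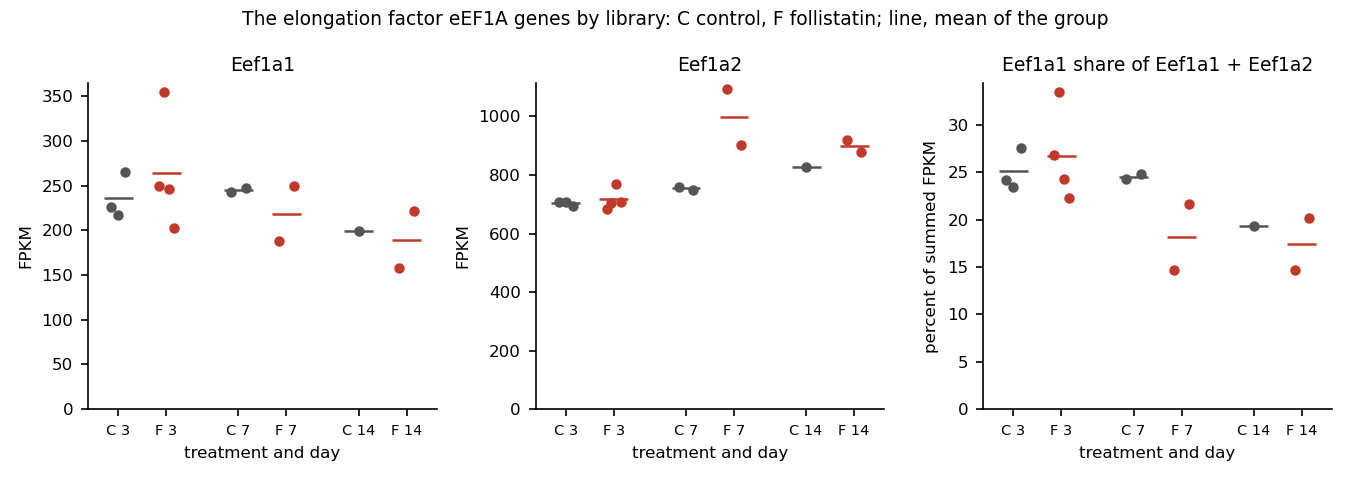
Eef1a1 (left) and Eef1a2 (middle) in FPKM, and the share of Eef1a1 in their sum in percent (right), by library, with controls in grey (C), follistatin in red (F), the day beside each letter and lines at group means. Shares of 22.2% to 33.5% at day 3 overlap between the groups, and at days 7 and 14 the follistatin libraries span 14.6% to 21.7% against 19.4% to 24.8% in the controls.

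An interaction term in a fit of all 14 libraries tested the change between the sets of days, since a call at days 7 and 14 and none at day 3 does not show that the effects differ. By limma 0 of 52 factor genes were called, against 0.0884% of all genes, and 9 of 52 had an unadjusted p under 0.05, against 14.8% of all genes. Eef1g had a difference of 0.53 (adjusted p = 0.157) and Eif5a of 0.46 (adjusted p = 0.209). The difference for Eif4b was -0.23 (adjusted p = 0.338).

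Some factor genes changed level between day 3 and the later days in the controls themselves. The mean of the later controls over that of the day 3 controls was 3.84 for Eif2s3x (9.97 to 38.3 FPKM), 2.84 for Eif3j2 (26.2 to 74.3 FPKM), 2.17 for Eef1g and 1.70 for Eif1. The same ratio in the follistatin libraries was 3.36, 3.03, 3.16 and 1.58. These 4 genes all have a near-identical copy, but so do Eef1a1 and Eef2, whose ratios in the controls were 0.973 and 0.886. Eif4b and Eef1a2 have none, and their control ratios were 0.885 and 1.11. Of the 17 tested members with a near-identical copy, 4 differed by more than 1.5-fold upward (median ratio 1.18, lowest 0.857). Of the 35 without one 0 did (median 0.977, highest 1.31). The share of all genes with such a step was not computed, and the part of the copies in these steps was not tested.

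Day and set cannot be told apart here, since the authors' tables treat day 3 and days 7 and 14 separately and no library links them. Treatments are therefore compared within a set. Eef1g and Eif5a both have copies, and the part of these in their values was not tested. Eif3j2 is uncertain in a further way: the authors' deposited table gives it the same locus as Eif3j1, while GENCODE M21 places it on another chromosome, and its transcript of 2379 bases matches Eif3j1 over its whole length.

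**Figure D4:**
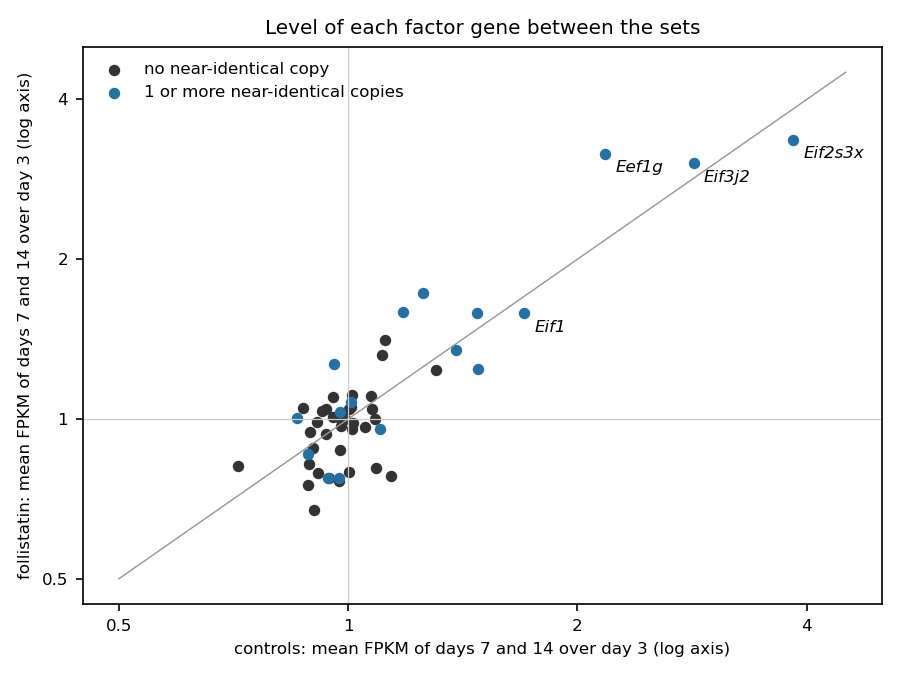
Ratio of the mean FPKM at days 7 and 14 to that at day 3, for each tested factor gene, in controls (horizontal) and follistatin libraries (vertical), both on log axes, with members that have a near-identical copy in blue, the others in black and a diagonal line of equal ratio. Eif2s3x, Eif3j2, Eef1g and Eif1, all with copies, stand up to 3.84-fold above 1, and Eef1g lies above the diagonal (2.17 in controls, 3.16 with follistatin).

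The other genes of the pathway were taken from a list of 51 repressors, kinases, mRNA-binding, release and mitochondrial translation genes, of which 50 were tested. At day 3, 1 of 50 was called, and at days 7 and 14, 2 of 50, against 1.49% and 5.5% of all genes. The medians of 0.02 and -0.11 were near those of all genes, 0.01 and -0.09. Pabpc1, the poly(A)-binding protein that joins the tail of an mRNA to eIF4G (chromosome 15, 36595661 to 36609668, minus strand), rose in both sets. It read 35.9, 38 and 41.6 FPKM in the controls of day 3 and 68.1, 68.4, 61.5 and 56.4 FPKM with follistatin (log2 change 0.71, SE 0.09, limma adjusted p = 0.011). Later it read 45.8, 49.9 and 42.3 FPKM against 73.2, 91, 79.3 and 79.5 FPKM (0.80, SE 0.11, adjusted p = 0.0129).

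No control library of Pabpc1 reached any follistatin library of its set. Its partner Eif4g1 lay on the other side at both times, at -0.09 and -0.38. The cytoplasmic relative Pabpc4 overlapped in both, at -0.03 and -0.19. At day 3 the call of Pabpc1 ended without control replicate 1 or 2 (adjusted p = 0.0569 and 0.0555 by limma), and later without control day 7 replicate 1 (0.0885) or control day 14 replicate 1 (0.0717). With the replicate block it ended in both sets (limma adjusted p = 0.0938 at day 3 and 0.0507 later). In the day 7 libraries alone Pabpc1 was not called (limma adjusted p = 0.194).

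Tsfm, the exchange factor of the mitochondrial elongation factor Tufm, rose at days 7 and 14, from 11.2, 10.8 and 10.6 FPKM to 18.1, 15, 15.9 and 20.2 FPKM (0.62, SE 0.12, limma adjusted p = 0.0313). It shares 165 exon bases with Avil on the opposite strand. Its call ended without any 1 of the 3 controls (adjusted p = 0.11 to 0.148) and without follistatin day 14 replicate 1 (0.0549), as well as with no filter on low values (0.0537) and with the replicate block (0.082).

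Of the 22 repressors, kinases and modifiers of the factors, 0 were called in either set by limma, against 1.49% and 5.5% of all genes. At an unadjusted p under 0.05 there were 2 at day 3 and 9 at days 7 and 14, against 15.2% and 28.3% of all genes. The 2 abundant repressors of the cap-binding protein lay on opposite sides at days 7 and 14: Eif4ebp1 read 23.7, 21.9 and 25.5 FPKM against 45.9, 31.4, 27.7 and 41.2 FPKM (0.58, SE 0.18, adjusted p = 0.0906). Eif4ebp2 read 52.7, 53.2 and 62.2 FPKM against 26.1, 42.1, 46.8 and 25.8 FPKM (-0.70, SE 0.23, adjusted p = 0.101). In the authors' deposited Cuffdiff table both had a q under 0.05, Eif4ebp1 at 0.00838 and Eif4ebp2 at 0.00338. Eef2k, the kinase that inactivates eEF2, lay at 14.2 ± 0.557 and 11.6 ± 0.761 FPKM (-0.27, SE 0.09, adjusted p = 0.109), and Eif2ak3, which phosphorylates eIF2 under stress of the endoplasmic reticulum, at 0.05 (95% interval -0.23 to 0.32).

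The marker lists of several other cell types lay to 1 side at days 7 and 14, with no marker called by limma. All 6 endothelial markers lay lower (median log2 change -0.58, summed level 116 to 156 FPKM in controls and 57.6 to 102 FPKM with follistatin), as did all 5 of smooth muscle and pericytes (-0.87, 125 to 168 and 40.4 to 95.5 FPKM) and all 3 tested of Schwann cells (-1.16, 20.9 to 57 and 8.62 to 20 FPKM). All 5 tested macrophage and leukocyte markers lay higher (0.65, 31.6 to 92 and 50 to 173 FPKM). The 5 markers of cycling cells summed to 0.686 to 2.15 FPKM in controls and 3.27 to 7.32 FPKM with follistatin. Of these 5 cycling markers 1 was tested, and the rest averaged under 1 FPKM, too low to test. Fibroblast markers overlapped (-0.27, 1 of 6 above 0, 315 to 521 and 244 to 506 FPKM), as did those of satellite cells and myoblasts (18.5 to 20.5 and 17.1 to 20.6 FPKM). At day 3 all 6 endothelial markers were likewise on the lower side (-0.26, 115 to 125 and 94.4 to 105 FPKM). None of the endothelial or cycling markers is listed at 0 in a library of these days. Their part in the differences of the factor genes was not tested, and in whole muscle fewer cells of a type and less RNA per cell cannot be told apart.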

How the data were processed

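The 14 libraries measured poly(A) RNA of tibialis anterior muscle, prepared with an Illumina TruSeq kit per the labels. The authors aligned reads with TopHat to mm10 and computed FPKM per gene and library with Cuffdiff, per the submitters' processing notes, and versions, annotation and strand setting are not given in the sources used here. The authors' 2 deposited tables hold Cuffdiff's log2 fold changes, test statistics (a score), p-values and q-values, for day 3 and for days 7 and 14, with controls named MCS.

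Of 24386 genes per file, 27 with symbols turned into dates were left out, as were genes marked HIDATA (too many reads to estimate, 4 at day 3 and 31 later) from the tests. Each set was fitted with limma 3.58.1 (lmFit, eBayes with trend) in R 4.3.3 on log2(FPKM + 1) of genes averaging 1 FPKM or more, two-sided, with Benjamini-Hochberg adjustment over all 11268 (day 3) or 11047 genes, and a call at an adjusted p under 0.05. Adding 1 FPKM makes the log2 change of low genes smaller than the fold of the means. The interaction used all 14 libraries and 11306 genes. The ratio of Eef1a1 to Eef1a2 was tested by an exact permutation over 35 splits. In day 3 libraries, depth relative to control replicate 1 was 0.681 to 1.28, from steps of values under 0.5 FPKM (79.3% to 83.9% at a whole ratio within 0.02 log2). At days 7 and 14 only 54.7% to 62.9% were, so relative depth was not settled there. Positions and copies are from GENCODE M21 with blastn 2.17.0+, and the script was tested on simulated data. There a log2 change of 0.5 was called in 27% of changed genes at day 3 and in 8% at days 7 and 14. A change of 1 was called in 87% and 64%. A gene that was not called may therefore still have changed.

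The members and lists were chosen with earlier results of these data known. Named are every called member, 12 members taken in any case (Eef1a1, Eef1a2, Eef2, Eif4e, Eif4g1, Eif4a1, Eif4a2, Eif2s1, Eif5a, Eif5a2, Eif6 and Eif2s3y), the extremes of each class, and of the related genes those called with Eif4ebp1, Eif2ak3, Eef2k and Pabpc1. Others were named after their values were seen, among them all genes named for groups that do not overlap, Eif4e2, Eif4g3, Eif4enif1, Eif4ebp2 and Pabpc4. Alternatives were another pseudocount (0.1), filter, scaling, robust eBayes, HIDATA genes kept, no small RNA genes (1282 genes), a replicate block, 1 fit of all 14 libraries, a term for day, day 7 alone, and leaving out each library.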

Additional observations from a re-analysis of the deposited data

Results flagged for a closer look

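Among the 4 follistatin libraries of days 7 and 14, follistatin day 7 replicate 2 stood apart for Eif5, the factor that triggers GTP hydrolysis on eIF2. It read 71.3 FPKM, against 44.7 to 47.6 FPKM in the other 3 libraries, and its gap to the nearest was 0.889 of the range of the group. It lay inside the control range of 53.2 to 81.3 FPKM. In all, 64 groups of 4 follistatin libraries (32 genes in 2 sets) were examined, and the limit used for the gap is one that chance passes in about 1 of 20 groups. Without this library the log2 change of Eif5 at days 7 and 14 was -0.55 (limma adjusted p = 0.093), and with it -0.39 (adjusted p = 0.25). Without control day 7 replicate 1 it was -0.26 (adjusted p = 0.576), and without each library it ran from -0.56 to -0.26.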

How the results depend on the processing

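The count of factor genes called by limma was 0 at day 3 and 0 without each library in turn. It became 1 (Eif4b) with a filter at 5 FPKM, median-ratio rescaling, quantile normalization and no small RNA genes. Over all genes the main fit of day 3 called 168 of 11268. Those settings called 236 of 7013, 170 of 11268, 163 of 11268 and 266 of 11095 genes in the same order, and leaving out each library 39 to 165. At days 7 and 14 it was 3, against 608 of 11047 over all genes. It became 1 without a filter on low values (Eif4b, against 284 of 22117 genes) and 6 with quantile normalization (740 of 11047). With a term for day it was 2 (Eef1g and Eif4b, against 485 of 11047). With all 14 libraries in 1 fit it was 12 (Eef1a2 and Eef2 among them), against 2098 of 11047. It was 0 in the day 7 libraries alone (30 of 10978), and 0 to 5 without each library (43 to 907 over all genes). The interaction called 0 factor genes in every setting, and 2 to 32 over all genes. The ratio of Eef1a1 to Eef1a2 ranged from -0.05 to 0.22 at day 3 and from -0.61 to -0.36 later without each library.

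Signs turned for changes near 0, none of them called in the set and setting concerned. By setting, Eif2s3y at day 3 came to -0.000576 rescaled and -0.0203 with quantile normalization, Eif4e later to 0.0225 rescaled, and in the day 7 libraries alone Eif2ak3 to -0.0595 and Eif4e3 to -0.0697. Without each library the ranges at day 3 were -0.0200 to 0.248 (Eef1a1), -0.00982 to 0.0475 (Eef1a2), -0.0915 to 0.0594 (Eif4a2), -0.0152 to 0.19 (Eif6), -0.0882 to 0.0890 (Eif2s3y), -0.124 to 0.0665 (Eif2d) and -0.0825 to 0.00763 (Eef1d). Later they were -0.0328 to 0.116 (Eif2s1), -0.224 to 0.0667 (Eif2s3y), -0.0197 to 0.108 (Eif2ak3) and -0.0249 to 0.14 (Eif4e3). The causes were not tested.

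Whether equal replicate numbers pair the libraries was not settled. Deviations from the group means correlated at -0.056 to -0.033 for same-numbered libraries of day 3, against -0.067 to 0.089 for the others. Later these ranges were 0.018 to 0.107 and -0.120 to 0.030. The group means of the later set joined both days, and the pairs are too few to exclude a pairing. With the replicate block, which drops the unmatched follistatin library of each set, 0 factor genes were called in both sets. Over all genes the block called 19 of 11299 at day 3 and 164 of 10979 later. Eif2s3y and Eef1d at day 3 came to -0.0882 and 0.0030. Values under 1 FPKM were too low to test, which leaves out Eif3j1, Eif4e1b and Eif5a2. With 3 controls a set, leaving out any control of days 7 and 14 ended the calls of factor genes and lowered the calls over all genes.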

Other observations

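Many factor mRNAs are known to carry a tract of pyrimidines at the 5′ end that places them under common control of translation, among them Eef1a1, Eef1b2, Eef1g, Eef2, Eif4b and, outside the factors, Pabpc1. These 6 genes were picked after their values were seen and are given as values only. Their log2 changes at days 7 and 14 were -0.18 (Eef1a1), 0.62 (Eef1b2), 0.71 (Eef1g), -0.42 (Eef2), -0.54 (Eif4b) and 0.80 (Pabpc1), and of these Eef1g, Pabpc1 and Eif4b were called by limma. At day 3 they were 0.13, 0.23, 0.18, -0.39, -0.31 and 0.71 in the same order, with Pabpc1 called. Eef2 and Eif4b were thus on the lower side in both sets while Eef1b2, Eef1g and Pabpc1 were on the higher side.

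Tufm, the mitochondrial counterpart of eEF1A, stood higher in the later libraries of both arms. It read 34.1 to 36.4 FPKM in the controls of day 3 and 91.6 to 95.9 FPKM in those of days 7 and 14, and 32.8 to 40.9 FPKM against 96.5 to 136 FPKM with follistatin. Within the sets its log2 change with follistatin was 0.03 and 0.23 (limma adjusted p = 0.894 and 0.282). Day and set cannot be told apart, and whether Tufm has near-identical copies was not examined here.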
